A study of Gossypium barbadense and Gossypium hirsutum with 8 samples.

Results

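The 208 probe sets described here gave at least 4-fold more signal in the Gossypium hirsutum parent SG747 than in the G. barbadense parent Giza75 in cotton fibre at 10 days post anthesis (DPA), the stage of rapid elongation. They were chosen by those 2 parent arrays alone, as a difference of 2 or more on the scale log2(signal + 16) after quantile normalization. They make up 1.44% of the 14417 probe sets left after a filter removed the 40% with the lowest mean. It was applied to the 24029 on the array without the AFFX prefix of control probe sets, and all 208 passed that filter by construction. The study hybridised 8 arrays: 3 high-yielding backcross inbred lines of a cross between these species (HY1, HY2 and HY3), 3 low-yielding lines of the same cross (LY1, LY2 and LY3), the high-yielding parent SG747 (HYP) and the low-yielding parent Giza75 (LYP). Each line and each parent had 1 array, from RNA of 1 g of fibre taken off the ovules, so the spread inside a yield group holds differences between lines, preparations and arrays together. Nothing in the sources used here says how many plants gave the fibre or in which of the 5 growing environments it was collected. The series text assigns the names of lines HY1 and HY3 the other way round from the samples' own labels, where HY1 is NMGA144; both lines are high-yielding in either version.

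A cotton fibre is a single, very long epidermal cell of the seed coat, and lint yield depends on how many fibres form and how much wall they lay down. G. hirsutum (upland cotton) is grown for its yield and G. barbadense (Egyptian or sea-island cotton) for long, fine fibre. Both are tetraploids that carry an A and a D genome, so most genes have a pair of closely related copies. A backcross inbred line carries a fixed mosaic of segments of both parents, and for a transcript whose level follows its own local allele, each line should sit near one parent or the other. A short-probe array adds a limit: probes designed on one species can bind the other species' transcript less well, so a low signal in Giza75 need not be a low transcript level. Probe match to each parent was not tested. In RNA from bulk fibre, fewer cells of a kind and less RNA per cell also cannot be told apart. The file pairs no probe set with a gene, and 0 of the 208 identifiers matched the G. barbadense gene table of 74561 genes used here. No gene function, and no marker of fibre or of other seed tissue, can therefore be read for these probe sets, which are called by letters with a few array identifiers.

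The identifiers do say which species' sequences each probe set was designed on. Of the 208, 188 (90.4%) carried the Ghi prefix of G. hirsutum, against 81.7% of all 14417 tested. Another 19 (9.13%) carried the Gra prefix of G. raimondii, a diploid relative of the D genome, against 17.7% of all tested, and 1 came from a G. barbadense sequence. The mirror set, 196 probe sets (1.36% of all tested) at least 4-fold higher in Giza75, had 80.1% Ghi and 16.3% Gra identifiers, close to the whole array. Identifiers with no letter before "_at", which mark probes designed to match 1 transcript, were 55.3% of the 208 and 46.5% of all tested, but 31.1% of the mirror set. Those marked _s_at, whose probes are shared by several transcripts, were 31.3% of the 208, against 44.2% of all tested and 55.1% of the mirror set.

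The 208 came from 201 sequence clusters by the stem of their identifiers. Only 6 clusters held more than 1 member, 13 members in all. For 46 members another probe set of the same cluster was tested as well, and 106 such partners lay outside the set, with a difference under 2 by definition. The partners had a median SG747 minus Giza75 log2 difference of 0.14, between -3.29 and 1.84. Of them 16 were at least 2-fold higher in SG747, 81 differed less than 2-fold and 9 were at least 2-fold higher in Giza75. A single cluster supplied 56 of the 106. The other 50 had a median difference of 0.40, with 13 at least 2-fold higher in SG747, 34 less than 2-fold apart and 3 at least 2-fold higher in Giza75. Partners were matched by cluster alone. Some differ from a member in the letter A or S of the identifier, which marks orientation, and so need not measure the same transcript. The separate copies of a gene pair, splice forms, probe orientation and unequal probe match cannot be told apart in these values.

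The choice of members fixed their levels in the parents, and those values are given as a description only. The 208 had a median difference of 2.61 on the log2 scale, which is 6.11-fold, with a middle range of 2.30 to 3.29. The difference was at least 3 for 69, at least 4 for 23, at least 5 for 11 and at least 6 for 2 probe sets. The 3 members nearest the threshold had differences of 2.005, 2.006 and 2.008, and the 3 probe sets just outside it 1.998, 1.998 and 1.999. In SG747 the members had a lowest deposited signal of 59.3, a median of 340 and a highest of 9018, where all tested probe sets had a median of 88.6 and a highest of 12008. In Giza75 their median signal was 13.1 and 112 of them (53.8%) lay under 16, the size of the pseudocount, where the fold change is understated.

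The largest parental differences among the brighter members set signals of 1713 to 6093 in SG747 against 1.2 to 58.2 in Giza75. Probe set A (Ghi.1809.1.S1_at) had signals of 622, 1129 and 971 in HY1, HY2 and HY3 and 1102, 1615 and 346 in LY1, LY2 and LY3, against 1713 in SG747 and 1.2 in Giza75. Probe set B (Ghi.8424.1.A1_at) had 1222, 1383 and 1000 in HY1, HY2 and HY3 and 875, 915 and 979 in LY1, LY2 and LY3, against 1870 in SG747 and 5.6 in Giza75. All 6 lines thus lay on the SG747 side for both, at 346 or more, far above Giza75. Probe set C had 3541, 6889 and 3847 in HY1, HY2 and HY3 and 6466, 8047 and 2771 in LY1, LY2 and LY3, against 6093 in SG747 and 58.2 in Giza75. Probe set D, one of the G. raimondii designs, had 1049, 3712 and 1438 in the HY lines and 4964, 2158 and 4498 in the LY lines, against 1842 in SG747 and 10.9 in Giza75. Here HY2 and all 3 LY lines had deposited signals above that of SG747. Probe set P, the member with the highest mean level, had 5283, 7181 and 5931 in HY1, HY2 and HY3 and 6358, 6951 and 3657 in LY1, LY2 and LY3, against 9018 in SG747 and 1492 in Giza75. It was below SG747 in each line.

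**Figure D1:**
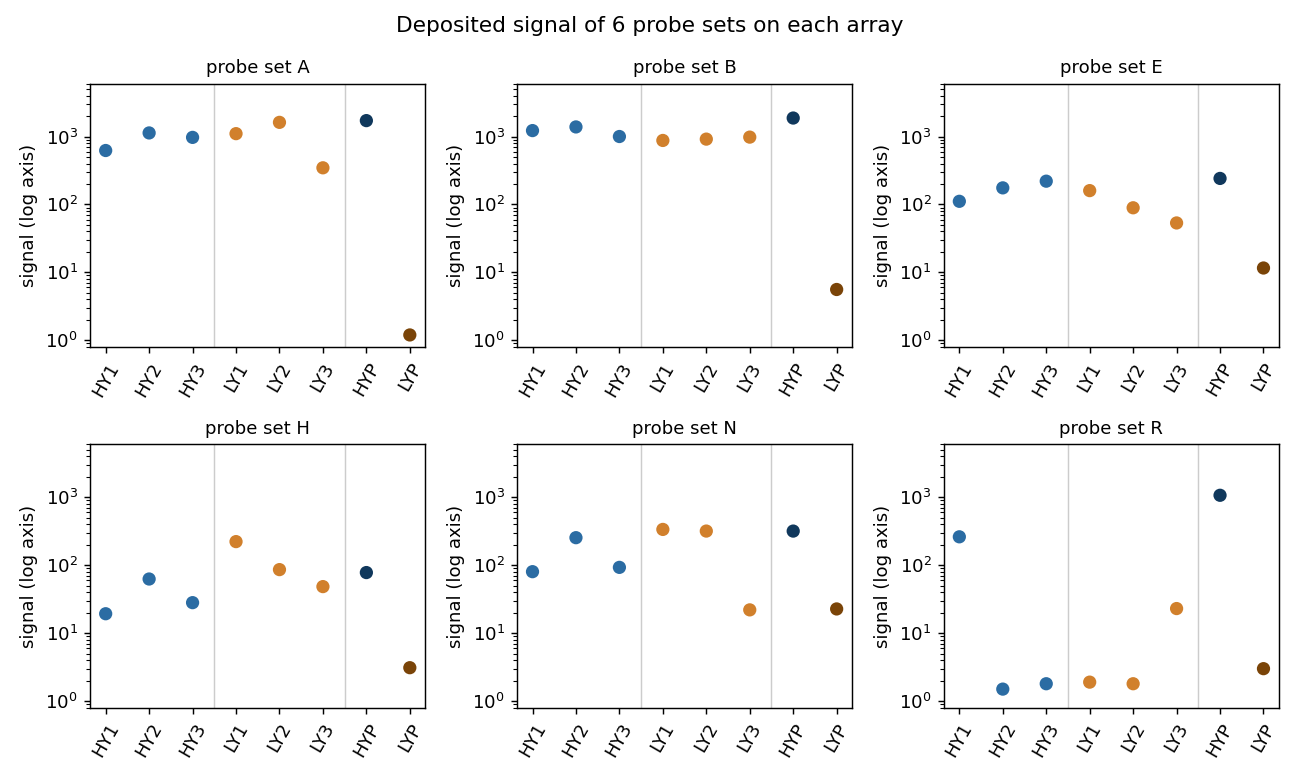
Deposited MAS5 signal (log axis) of probe sets A, B, E, H, N and R on each of the 8 arrays, 1 point per array: high-yield lines in blue, low-yield lines in orange, SG747 (HYP) in dark blue and Giza75 (LYP) in brown. A and B are far above Giza75 in all 6 lines (346 or more), N is at the Giza75 level in LY3 alone (22.0), and R is high in SG747 (1069) and lower in every line.

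Across the 208, the lines resembled SG747. A line was counted at the SG747 level when its normalized value lay within 2-fold of that parent or above it, and at the Giza75 level when it lay within 2-fold of Giza75 or below it. Of the 1248 combinations of a member and a line, 1006 (80.6%) were at the SG747 level, 150 (12.0%) between the levels and 92 (7.37%) at the Giza75 level. The numbers at the SG747 level were 186, 176 and 188 of 208 in HY1, HY2 and HY3, and 143, 170 and 143 in LY1, LY2 and LY3. The numbers at the Giza75 level were 7, 11 and 7 in HY1, HY2 and HY3, and 21, 15 and 31 in LY1, LY2 and LY3. On both counts each HY line lay nearer SG747 than any LY line. The mean share at the Giza75 level was 4.01% in HY and 10.7% in LY lines. These counts use the parental values that chose the members and carry no test. For members with a parental difference near 2, the 2-fold limits leave almost no room between the levels, so the shares depend on this definition. Error in the 2 parent arrays also entered the choice, and its part was not tested. The share of each parent's genome in the lines was not used here, and its part in these counts was not tested.

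**Figure D2:**
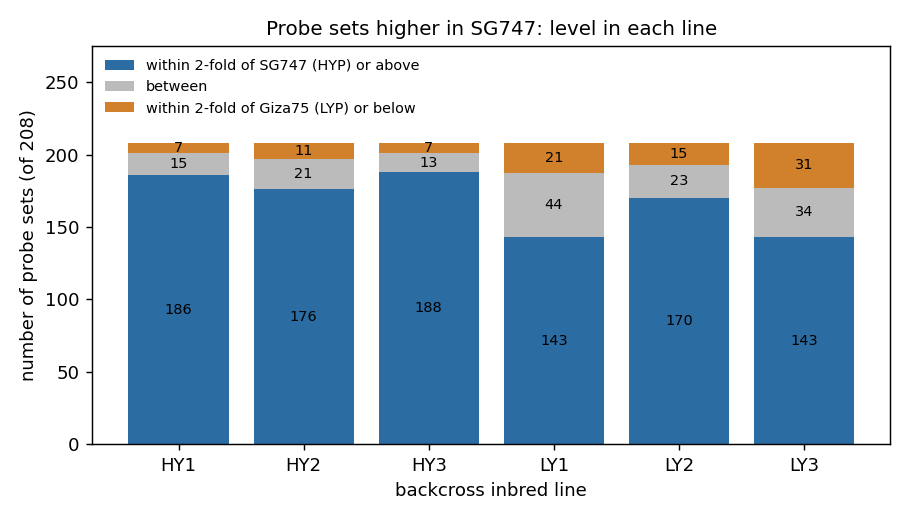
Number of the 208 probe sets (vertical axis) in each backcross inbred line (horizontal axis) within 2-fold of SG747 or above (blue), within 2-fold of Giza75 or below (orange) and between (grey). The blue part is 176 to 188 in the 3 HY lines and 143 to 170 in the 3 LY lines.

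A position was computed for each member in each line, where 1 is the level of SG747 and -1 that of Giza75. The median position over the 208 was 0.86, 0.76 and 0.87 in HY1, HY2 and HY3, and 0.53, 0.78 and 0.57 in LY1, LY2 and LY3. The HY lines averaged 0.83 ± 0.06 and the LY lines 0.63 ± 0.13 (SD, n = 3 each), and the groups overlapped because LY2 lay above HY2. On the deposited scale, with no normalization between arrays and the members chosen again, the median positions were 0.22, 0.76 and 0.32 in HY1, HY2 and HY3, and 0.77, 0.97 and -0.20 in LY1, LY2 and LY3. LY3 then lay on the Giza75 side, and the difference of 0.20 turned to -0.08. With median centring LY3 had a position of 0.13. The median distance to SG747 itself was -0.22, -0.35 and -0.18 on the log2 scale in HY1, HY2 and HY3, and -0.68, -0.32 and -0.58 in LY1, LY2 and LY3. Some members exceeded SG747: 80, 53 and 75 in HY1, HY2 and HY3 and 36, 57 and 60 in LY1, LY2 and LY3, but 2 to 6 per line by more than 2-fold. One member was above SG747 in all 6 lines, and none was below Giza75 in all 6.

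The lines did not stop short of SG747 by the same probe sets. In all, 89 of the 208 (42.8%) were at the SG747 level in all 6 lines, 88 in 4 or 5 lines and 31 in fewer. With the same members, the count of 89 was 36 on the deposited scale, 53 with median centring and 129 with a pseudocount of 64. At that pseudocount only 87 of the 208 kept a parental difference of 2, and for the others the SG747 and Giza75 levels overlapped. All 3 HY lines were at the SG747 level for 160 members (76.9%), and all 3 LY lines for 96 (46.2%). No member was at the Giza75 level in all LY lines and in no HY line, and none showed the reverse. Just 1 member was at the SG747 level in all HY lines and in no LY line.

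Most members with any line at the Giza75 level had 1 such line. Of the 208, 152 had no line at the Giza75 level, 40 had 1 such line and 16 had 2 or more. The 40 gave 40 of the 92 combinations at that level, and the 16 gave the rest, which is the larger part. Of the 40, 3 were low in a HY line and 37 in a LY line: 1, 2 and 0 in HY1, HY2 and HY3, and 9, 8 and 20 in LY1, LY2 and LY3. For 16 of the 20 low in LY3 alone, the other 5 lines were all at the SG747 level. In those 16, LY3 had a median signal of 49.9 (9.0 to 258.6), against 352 (87 to 2873) in SG747, and a median log2 difference of -1.54. The other 5 lines had a median log2 difference of -0.33 from SG747. LY3 also had the dimmest array, with a median signal of 13.2 over all probe sets. HY1 was nearly as dim at 13.5 and had 1 member low in it alone. The part of brightness in these counts was not tested. Leaving out LY3 left 23 members with 1 low line, 6 in HY and 17 in LY lines.

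Probe sets N, M and L show the pattern line by line, each with the lowest position in its line among members whose other 5 lines were at the SG747 level. Probe set N (Gra.94.2.S1_s_at) had 80.3, 254 and 92.9 in HY1, HY2 and HY3 and 336, 318 and 22.0 in LY1, LY2 and LY3, against 318 in SG747 and 22.7 in Giza75, so that LY3 alone matched Giza75. Probe set M had 141, 295 and 163 in the HY lines and 213, 37.0 and 399 in the LY lines, against 227 in SG747 and 12.5 in Giza75. Here LY2 alone was low, and LY3 exceeded SG747. Probe set L had 173, 232 and 140 in the HY lines and 98.9, 258 and 112 in the LY lines, against 397 in SG747 and 37.8 in Giza75. As deposited, its LY1 signal was near those of LY3 and HY3 and more than 2-fold above Giza75. After normalization LY1, which had the brightest array with a median of 36.3, had a position of -0.92. No member met the same condition for a HY line.

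**Figure D3:**
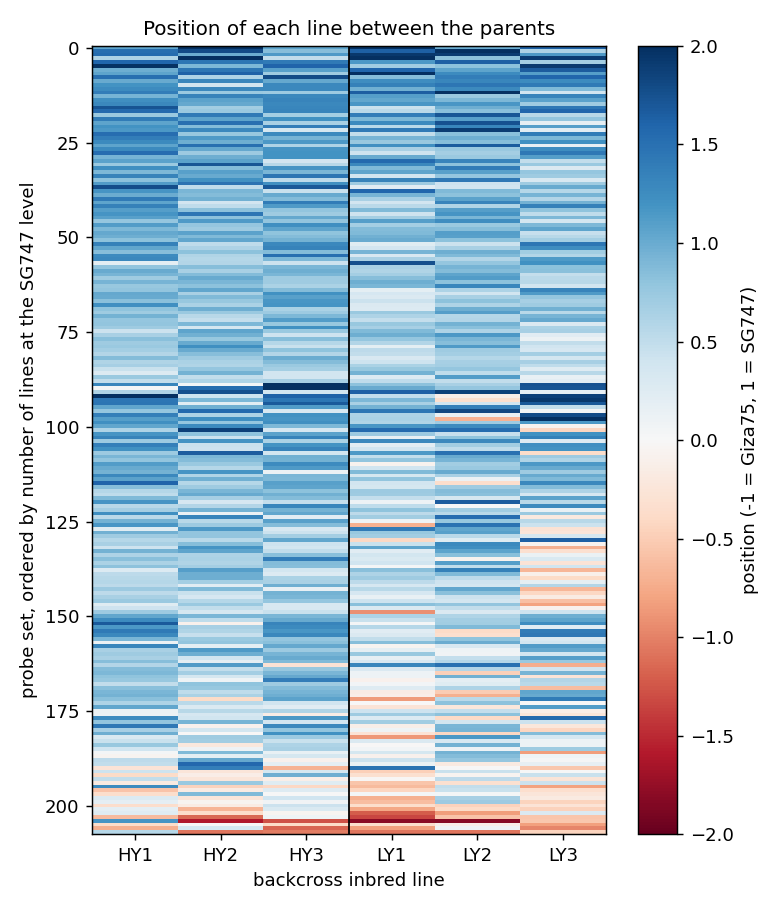
Position of each line (columns) for each of the 208 probe sets (rows, ordered by the number of lines at the SG747 level), on a scale where 1 is SG747 and -1 is Giza75; 9 positions beyond 2 or -2 are drawn at the end of the scale. Red cells are few and lie more often in the LY than in the HY columns. Some stand as single cells, and in the lowest rows several lines are low together.

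At the other end, 3 members were at the SG747 level in none of the lines; they were picked out after their values were seen. Probe set R (GhiAffx.60900.1.S1_at) had 262, 1.5 and 1.8 in HY1, HY2 and HY3 and 1.9, 1.8 and 23.0 in LY1, LY2 and LY3, against 1069 in SG747 and 3.0 in Giza75. It thus had a clear signal in HY1 and SG747, a weak one in LY3 and values of 3.0 or less elsewhere. Probe set Q had 8.9, 110 and 1.1 in the HY lines and 14.5, 85.9 and 3.5 in the LY lines, against 229 in SG747 and 4.3 in Giza75. Probe set T had 16.2, 62.0 and 18.2 in the HY lines and 48.4, 58.2 and 5.8 in the LY lines, against 226 in SG747 and 3.6 in Giza75. The higher lines were on brighter arrays: HY2 and LY2 for Q, and HY2, LY1 and LY2 for T. HY2, LY1 and LY2 had array medians of 26.0, 36.3 and 30.5, against 13.5, 15.7 and 13.2 for HY1, HY3 and LY3. LY1, on the brightest array, was not among the higher lines for Q. Its normalized log2 level there was 4.69, below the 4.86 of HY1. The part of brightness in Q and T was not tested. A further 8 members were at the SG747 level in 1 line only.

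The design asks which transcripts differ between high-yielding and low-yielding lines, and for the 208 that contrast uses arrays that did not choose them, apart from the shared normalization and filter. As a group the members leaned toward the HY lines: 170 of 208 (81.7%) had a higher mean in the HY than in the LY lines, where 54.8% of all tested probe sets did. Their median HY minus LY log2 difference was 0.27, against 0.04 for all tested, so the members stood 0.23 above the array as a whole. Per line, the members' median departure from the mean of the 6 lines, less that of all tested probe sets, was 0.15, 0.03 and 0.20 in HY1, HY2 and HY3, and -0.24, 0.02 and -0.17 in LY1, LY2 and LY3. HY2 and LY2 were nearly equal, and the separation came from the other 4 lines. With 1 line left out, the share of 81.7% ran from 66.8% (without LY3) to 86.5% (without LY2). The shares of all tested in those 2 settings were 52.4% and 55.4%. The excess of 0.23 was between 0.16 and 0.32 with any 1 line left out. It was 0.22 on the deposited scale, where 42.3% of the members and 16.9% of all tested had a higher mean in the HY lines.

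**Figure D4:**
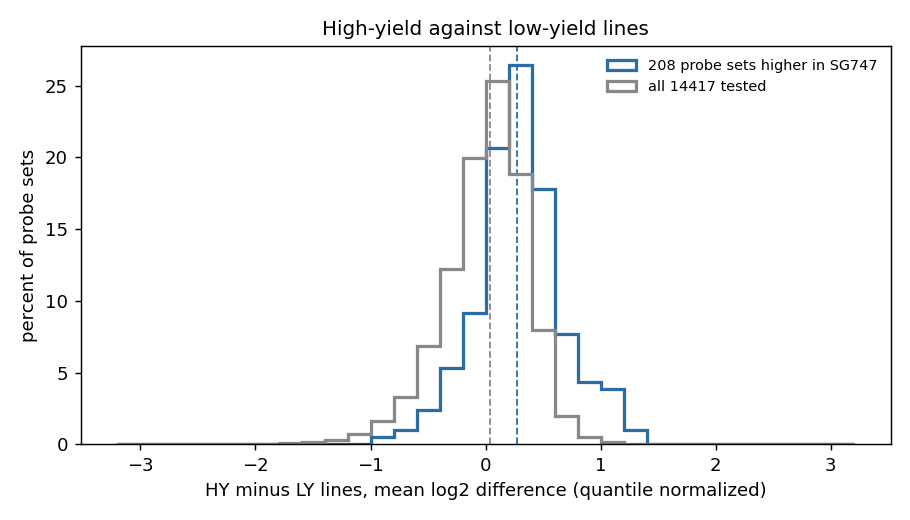
Distribution of the mean log2 difference between HY and LY lines (horizontal axis) as a percent of probe sets (vertical axis), for the 208 probe sets higher in SG747 (blue) and all 14417 tested (grey), with the medians as dashed lines. The blue distribution is shifted to the right, with medians of 0.27 and 0.04.

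No single member passed the adjusted threshold between the yield groups with 3 arrays each. In limma, 0 of the 208 passed an adjusted p of 0.05 (0% of the 14417 did), and the lowest adjusted p among them was 0.994. At an unadjusted p under 0.05 there were 7 members, 6 higher and 1 lower in HY lines. That is 3.37% of the members, where 2.12% of all tested were called: 0.728% higher and 1.39% lower. Of the members, 2.88% were higher and 0.481% lower. The groups did not overlap for 12 members higher in HY lines (5.77%, against 4.18% of all tested) and 2 lower (0.962%, against 2.03%). The count of 7 depended on single lines: it was 2 without HY1, 13 without HY2, 1 without HY3, 4 without LY1, 16 without LY2 and 44 without LY3. The shares of all tested probe sets moved with it, to 1.06%, 5.72%, 0.721%, 0.506%, 3.34% and 12.6% in the same order.

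The members with the smallest unadjusted p are given as values. Probe set E (GraAffx.33519.1.S1_s_at) had normalized log2 levels of 7.50, 7.21 and 8.25 in HY1, HY2 and HY3, and 6.74, 6.21 and 6.75 in LY1, LY2 and LY3, against 7.72 in SG747 and 4.90 in Giza75. The groups did not overlap, with a log2 difference of 1.09 ± 0.36 (SE; limma adjusted p = 0.994). Its deposited signals did overlap: 111, 175 and 220 in HY1, HY2 and HY3, and 160, 89.3 and 53.4 in LY1, LY2 and LY3. Probe set F (Ghi.8448.1.S1_x_at) had normalized log2 levels of 11.75, 12.22 and 12.13 in the HY lines and 11.83, 10.61 and 11.13 in the LY lines, against 12.26 in SG747 and 8.71 in Giza75. LY1 lay above HY1, and the log2 difference was 0.84 ± 0.30 (SE; limma adjusted p = 0.994). Probe set G had levels of 7.84, 7.40 and 8.01 in the HY lines and 6.55, 7.06 and 6.99 in the LY lines, a log2 difference of 0.88 ± 0.32 (SE). All 3 were picked from the members higher in HY lines, so their lying in the order of the parents was fixed by the choice.

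Members lower in HY lines run against the order of the parents by definition, and probe set H (GraAffx.32086.1.S1_s_at) had the smallest p among them. It had normalized log2 levels of 5.56, 5.96 and 5.81 in HY1, HY2 and HY3, and 7.20, 6.17 and 6.62 in LY1, LY2 and LY3, against 6.40 in SG747 and 4.31 in Giza75. The normalized groups did not overlap (log2 difference -0.89 ± 0.34 SE; limma adjusted p = 0.994). The deposited signals were low, at 19.3, 62.6 and 28.1 in the HY lines and 222, 86.1 and 48.4 in the LY lines. They did overlap, as HY2 lay above LY3. Probe sets J and K, the other members with the smallest p in this direction, had log2 differences of -0.57 ± 0.33 and -0.55 ± 0.33 (SE).

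The 6 lines varied more for these members than for most probe sets. The SD over the 6 lines had a median of 0.55 on the log2 scale for the 208, against 0.39 for all tested, and the lines spanned at least 4-fold for 52 members (25%), against 7.66% of all tested. The mirror set varied more still, with a median SD of 0.88. After each member was centred on its mean over the lines, LY1 correlated with HY2 (Pearson r = 0.48 over 208 members) and LY3 with HY3 (r = 0.42), while LY2 and LY3 ran opposite (r = -0.78). Over all 14417 probe sets the same pairs had r of 0.42, 0.30 and -0.77, and every pair of lines kept its sign. The size of r differed for some pairs. HY1 and LY3 had 0.31 over the members and 0.02 over all tested, and HY1 and LY2 -0.38 and -0.18. Centring by itself pulls such correlations below 0. The sign of r followed brightness, with HY2, LY1 and LY2 on the brighter arrays. For the control transcript ss1, the signal at the 5′ end over that at the 3′ end, a measure of RNA integrity, was 0.41, 0.43 and 0.32 on these and 0.11, 0.19 and 0.27 on HY1, HY3 and LY3. The same ratio of the control ubq11 was 0.66, 0.60 and 0.48 on the brighter arrays and 0.27, 0.31 and 0.38 on the others. That of actin overlapped, at 0.158, 0.157 and 0.174 on HY2, LY1 and LY2 and 0.124, 0.217 and 0.156 on HY1, HY3 and LY3. The part of RNA integrity in the members' values was not tested. Inside the brighter set of arrays, HY2 had a median position of 0.76, against 0.53 in LY1 and 0.78 in LY2. Inside the other set, HY1 and HY3 had 0.86 and 0.87, against 0.57 in LY3. Only HY2 stood for the HY lines in the first set, and only LY3 for the LY lines in the other. These values therefore do not test yield group apart from brightness. On the parent arrays the ss1 ratio was 0.211 in SG747 and 0.345 in Giza75, and the ubq11 ratio 0.484 and 0.584. The actin ratio was 0.189 and 0.148, and the array medians were 22.3 and 17.0. The part of these differences in the choice of members was not tested.

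Members with single-transcript identifiers and those marked _s_at moved differently on the 2 kinds of array. For the 115 members with single-transcript identifiers the median positions were 0.95, 0.70 and 0.91 in HY1, HY2 and HY3, and 0.45, 0.67 and 0.68 in LY1, LY2 and LY3. For the 65 marked _s_at they were 0.74, 0.88 and 0.71 in HY1, HY2 and HY3, and 0.67, 0.84 and 0.31 in LY1, LY2 and LY3. The single-transcript probe sets thus lay nearer SG747 than those marked _s_at in HY1, HY3 and LY3, and farther from it in HY2, LY1 and LY2. The 24 marked _x_at had 0.84, 0.80 and 0.91 in HY1, HY2 and HY3, and 0.76, 0.88 and 0.66 in LY1, LY2 and LY3. In HY3 and LY3 they were close to the single-transcript ones. Of the 16 members low in LY3 alone with the other lines at the SG747 level, 10 were marked _s_at or _x_at. Of all 208, 31.3% were marked _s_at and 11.5% _x_at, against 44.2% and 7.63% of all tested. For the 23 members with a parental difference of 4 or more the median positions ran from 0.65 in LY1 to 0.92 in HY3. For the 46 with 3 to 4 they ran from 0.42 in LY1 to 0.92 in HY3. For the 139 with a difference under 3 they ran from 0.53 in LY1 to 0.83 in HY1. The share of combinations at the SG747 level was 83.8% for the 139, 74.3% for the 46 and 73.9% for the 23. Members at that level in all 6 lines were 69 of the 139, 14 of the 46 and 6 of the 23.

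The mirror set placed the lines differently. For the 196 probe sets higher in Giza75 the median positions on the same scale were 0.57, 0.41 and 0.34 in HY1, HY2 and HY3, and 0.05, 0.86 and -0.63 in LY1, LY2 and LY3, where the 208 had all 6 lines at 0.53 or above with quantile normalization. LY3 was at the Giza75 level for 14.9% of the 208 and for 67.9% of the mirror set. LY2 was nearest SG747 of all lines for the mirror set and stood among the HY lines for the 208. The HY minus LY median of the mirror set, relative to all tested, was -0.54, and -0.09 without LY3, against 0.23 and 0.21 for the 208. Both sets were chosen on the same parent arrays, so this comparison is given without a test.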

How the data were processed

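Values were the signal intensities that the authors deposited, 1 per probe set on a linear scale. GCOS and MAS5 made them, per the submitters' processing notes; their versions and the scaling target are not given in the sources used here. Of 24132 probe sets, 103 controls with the AFFX prefix were dropped. The tested probe sets still held 4 with the prefix RPTR and 4 with GhirRNA, and the mirror set held 2 with GhirRNA. All 8 columns were matched to samples by accession. No 2 arrays held over 1.19% equal values. Signals were transformed as log2(value + 16), quantile normalized over 8 arrays, and the 40% with the lowest mean left out. High-yield and low-yield lines (3 against 3) were compared in limma 3.58.1 (R 4.3.3; lmFit, then eBayes with its trend option), with Benjamini-Hochberg adjustment over 14417 probe sets at 0.05. The fit was tested on simulated data with independent noise for each probe set and line. That simulation did not cover variation shared by many probe sets of an array. P-values measure only the spread between lines with 1 array each, and the number of arrays limits the precision. Tables and plots used pandas 2.3.3 and matplotlib 3.10.9.

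The members and the tests were chosen with earlier results of these data known. Named were the 4 largest parental differences among the brighter members, the 3 higher and 3 lower in HY lines with the smallest p, the lowest member of each line whose other 5 lines were at the SG747 level, and the member with the highest mean. Probe sets Q, R and T were added after their values were seen. Gene lists and tissue markers could not be matched, and no sequences of the probes were used here. Alternatives were other pseudocounts, filters, normalizations and a higher parental threshold, leaving out shared probe sets or each line, the line number as a block and no trend. Same-numbered lines were not treated as pairs (r = -0.24, 0.19 and 0.54 between their deviations from the group means).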

Additional observations from a re-analysis of the deposited data

How the results depend on the processing

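With limma, 0 members passed the adjusted threshold under every alternative run, with a lowest adjusted p of 0.351 (without LY3). At an unadjusted p under 0.05 the 7 members became 15 with a pseudocount of 1, 3 with a pseudocount of 64, 1 on the deposited scale, 3 without probe sets marked _s_at or _x_at and 2 with a parental difference of 3. Fewer probe sets were tested without the shared ones, and members were chosen again under each of these settings, with 555, 87, 416, 119 and 69 of them. The shares of all tested probe sets called were 1.9%, 2.09%, 0.985%, 1.96% and 2.12% in the same order, against 2.12% for the 7. Leaving out single lines gave 1 to 44. The replicate block gave 17, with 4.49% of all tested probe sets, but the line numbers share no more than a number. On the deposited scale the mean over lines of the median position was 0.47 and the mean percent of members nearer SG747 was 76.2%, and with median centring 0.51 and 81.9%. The HY minus LY difference of the median position was -0.0797 on the deposited scale; the cause was not tested. The members' HY minus LY median less that of all tested was 0.37 with a parental difference of 3, and the difference in the percent at the Giza75 level, -6.73 between HY and LY means, was -11.9 with a pseudocount of 64. These 2 results were examined under alternatives chosen after seeing the data, and kept their direction under each. With a pseudocount of 64 the SG747 and Giza75 levels overlapped for members whose parental difference fell under 2, which affects the -11.9. Low signals near background limit what the Giza75 level can show.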
